A study of Mus musculus with 6 samples.

Results

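This account covers 8 genes that read above control in both groups of tamoxifen-treated mouse fibroblasts, namely Klra4, Klra16, Msln, Cd24a, Lmo7, Foxc2, Meox1 and Nrep. They were chosen as reading far above control, so their distance from control is given below as a description and is not tested. The smallest difference was that of Nrep in no.1, at 3.24-fold. All non-control probes whose accession mapped to these symbols were taken, which gave 11 probes for the 8 genes, out of 56605 probes and 45616 gene names on the array. Cd24a had 2 probes, Lmo7 had 3, and each of the other genes had 1. Each gene is represented by its brightest probe, and all 8 of these probes were well above background on all 6 arrays. They are therefore among the 23058 genes that entered the fit.

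Fibroblasts grown out of the tail tissue of C57BL/6 mice were profiled on 1-colour Agilent arrays, in 3 groups of 2 arrays. All groups, the control included, carried the genotype written LH2F/F CAG-Cre, a conditional allele of lysyl hydroxylase 2 with a Cre transgene under the broadly active CAG promoter. LH2 is the product of Plod2 and modifies the ends of collagen chains before they are crosslinked. LH2 cKO no.1 cells had 24 h of tamoxifen and a medium with tamoxifen, LH2 cKO no.2 cells had 24 h of tamoxifen and a medium without it, and control cells were in medium without tamoxifen. No group combined tamoxifen with an intact gene, so tamoxifen and the deletion cannot be told apart. The file names carry 24 h for replicate 1 and 48 h for replicate 2 of both cKO groups, and 0 h for control, whereas the labels give 24 h of tamoxifen for all 4 cKO arrays. If the file names hold, the hour cannot be told apart from group in either contrast with control, nor from replicate number within the cKO cells, while between no.1 and no.2 it is balanced. Nothing in the labels tells whether replicates were cultured separately, and every p-value below therefore measures a spread between arrays that may be technical.

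The 8 genes belong to different systems. Klra4 and Klra16 encode receptors of the Ly49 family, lectin-like surface proteins known from natural killer (NK) cells, where they read major histocompatibility complex class I molecules. Msln encodes mesothelin, a surface protein of the cells that line body cavities, and Cd24a encodes a small, heavily glycosylated surface protein. Both are held in the membrane by a glycosylphosphatidylinositol (GPI) anchor. Lmo7 encodes a protein with a LIM and a PDZ domain that is found at cell junctions and on actin. Foxc2 and Meox1 encode transcription factors of the embryonic mesoderm, a forkhead protein and a homeodomain protein of the somites. Nrep encodes a small intracellular protein, also called P311, that is known from neurons and from fibroblasts during wound repair.

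The arrays differed in brightness. The 75th percentile of the signal was at 85.1 to 95.9 for no.1, at 55.1 to 56.9 for no.2 and at 33.7 to 34.2 for control, and all log2 values below are relative to this percentile on their own array. Relative to the 7 spike-in control probes, added in a fixed amount, the median of all tested genes lay 1.82 log2 units above control in no.1 and 1.19 in no.2, against -0.12 and -0.10 in the scaling used here. Of the fibroblast markers, Col1a1, Col1a2 and Vim, a collagen pair and an intermediate filament, had signals of at least 6080 on all 6 arrays. Of the 13 tested markers limma called 2 higher and 7 lower in no.1 than in control, beside 21.4% and 26.4% of all genes tested. In no.2 it called 2 higher and 5 lower, beside 12.1% and 16.2% of all genes. Plod2, the targeted gene, had signals of 31.8 and 17.1 in no.1, 13.3 and 8.59 in no.2, and 42.1 and 34.9 in control, which makes a scaled log2 difference from control of -2.13 ± 0.34 (SE; limma adjusted p = 0.00613) for no.1 and of -2.57 ± 0.34 (adjusted p = 0.00767) for no.2. With spike-in scaling the no.1 difference was -0.19 and did not pass (adjusted p = 0.597). Whether its probe lies in the deleted part was not checked here.

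The Ly49 genes lie side by side on mouse chromosome 6 and resemble each other closely. To show how alike they are, the bases just upstream of the annotated start are printed for Klra4 and for the family members Klra7 and Klra8, whose probes also read high in both cKO groups. They are followed by those of Lmo7, the other member with an entry among the RefSeq promoters (GRCm38.p6). Klra4 and Lmo7 were the 2 of the 8 genes that matched. Capitals mark matches, on either strand, to 5 searched motifs. These were the TATA box searched as TATAAA, the CCAAT box by its own letters, the GC box searched as GGGCGG, the core bound by TEAD factors searched as GGAATG, and the AP-1 site searched as TGANTCA. No match overlapped another.
Klra4 (chr6:130067302-130067521, minus strand): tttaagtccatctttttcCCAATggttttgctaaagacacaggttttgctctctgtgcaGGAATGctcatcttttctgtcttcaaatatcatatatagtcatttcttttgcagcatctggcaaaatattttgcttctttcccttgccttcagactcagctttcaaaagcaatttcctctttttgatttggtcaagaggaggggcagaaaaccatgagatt
Klra8 (chr6:130129899-130130148, minus strand): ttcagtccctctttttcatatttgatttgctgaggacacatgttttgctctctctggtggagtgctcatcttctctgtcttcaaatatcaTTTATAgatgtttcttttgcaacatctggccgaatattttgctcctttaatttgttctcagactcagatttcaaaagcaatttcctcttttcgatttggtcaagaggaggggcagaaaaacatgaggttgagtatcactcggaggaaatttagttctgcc
Klra7 (chr6:130233323-130233572, minus strand): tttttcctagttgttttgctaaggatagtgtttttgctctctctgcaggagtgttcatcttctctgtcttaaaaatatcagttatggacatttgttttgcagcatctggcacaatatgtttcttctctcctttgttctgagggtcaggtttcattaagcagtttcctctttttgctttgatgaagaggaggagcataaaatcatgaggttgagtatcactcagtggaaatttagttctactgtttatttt
Lmo7 (chr14:101729678-101729927, plus strand): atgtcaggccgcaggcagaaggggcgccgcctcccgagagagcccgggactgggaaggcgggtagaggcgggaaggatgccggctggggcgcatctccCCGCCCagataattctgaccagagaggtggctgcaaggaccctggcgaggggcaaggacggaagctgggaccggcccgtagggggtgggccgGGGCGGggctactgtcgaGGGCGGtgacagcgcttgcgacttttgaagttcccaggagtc

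Klra4 and Klra8 were identical at 186 of 219 aligned bases (84.9%), Klra4 and Klra7 at 171 of 206 (83.0%), and Klra8 and Klra7 at 197 of 238 (82.8%). The Klra4 stretch holds 1 CCAAT box and 1 TEAD core, which 31.0% and 11.4% of the 32851 promoters in the table also hold in a window of 220 bases. The Klra8 stretch holds 1 TATA box, as do 12.4% of windows of 250 bases, and the Klra7 stretch holds none of the 5 motifs. The bases upstream of Lmo7 are of another kind, with 68.8% G and C and 3 GC boxes, a motif found in 32.7% of windows of that length. G and C made up 37.7% of the Klra4 stretch, 38.8% of that of Klra8 and 36.4% of that of Klra7, beside a median of 52.4% over windows of 250 bases. These matches are a description of the letters in the windows. They lie upstream of the RNA that a probe reads, and the sequences of the probes were not used here. Whether a probe for 1 Ly49 gene also reads another was therefore not tested, and the values of Klra4 and Klra16 are those of their probes.

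The Klra4 probe gave signals of 3936 and 1774 in no.1, 780 and 929 in no.2, and 11.9 and 12.2 in control. All 4 cKO arrays stood far above both controls, with both no.1 arrays above both no.2 arrays. The scaled log2 difference from control was 6.37 ± 0.34 (SE) in no.1, or 82.6-fold, and 5.42 ± 0.34 in no.2, or 43.0-fold. The Klra16 probe ran the same course at other signals, with 2051 and 945 in no.1, 418 and 451 in no.2, and 7.90 and 10.3 in control. Again no cKO array came near a control array, and replicate 1 of no.1 was the highest. Its difference from control was 5.86 ± 0.34 in no.1 (58.1-fold) and 4.87 ± 0.34 in no.2 (29.2-fold). Across the 6 arrays the profiles of these 2 genes, each centred on its own mean, differed by a root mean square of 0.27 log2 units, the smallest distance among the 28 pairs of the 8 genes.

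Msln had signals of 465 and 908 in no.1, 680 and 716 in no.2, and 10.4 and 15.4 in control. The no.2 arrays were close to each other, whereas replicate 1 of no.1 was the lowest of the 4 cKO arrays, and none of the 4 overlapped the controls. After scaling, both no.1 arrays lay below both no.2 arrays. The difference from control was 4.27 ± 0.41 in no.1 (19.3-fold) and 5.06 ± 0.41 in no.2 (33.4-fold). Cd24a, the other GPI-anchored protein, had signals of 2555 and 890 in no.1, 357 and 157 in no.2, and 21.4 and 23.9 in control. Its 4 cKO arrays ran in steps, with replicate 1 above replicate 2 in both groups and both no.1 arrays above both no.2 arrays. The difference from control was 4.65 ± 0.56 in no.1 (25.0-fold) and 2.67 ± 0.56 in no.2 (6.36-fold). Its second probe, with signals of 1524 and 525 in no.1, 240 and 105 in no.2 and 12.2 and 16.4 in control, gave differences of 4.57 and 2.77, so the 2 probes of Cd24a showed the same order of arrays.

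Lmo7 had signals of 952 and 542 in no.1, 284 and 265 in no.2, and 15.2 and 17.0 in control at its brightest probe. The no.1 arrays were the highest and the groups did not overlap. The difference from control was 4.07 ± 0.27 in no.1 (16.7-fold) and 3.37 ± 0.27 in no.2 (10.3-fold). The other 2 Lmo7 probes were dim. One had signals of 28.8 and 15.6 in no.1, 11.4 and 7.72 in no.2, and 1.15 and 2.30 in control, where it was not well above background. Against the dimmest signal that counts as well above background on the control arrays, it was at least 1.75-fold higher in no.1 and at least 1.25-fold higher in no.2. The third, with signals of 17.6 and 8.71 in no.1, 7.37 and 5.57 in no.2 and 1.93 and 2.38 in control, was also not well above background in control. It was at least 1.02-fold higher in no.1, and in no.2 no such bound could be given. All 3 probes had the same order of groups, but only the brightest gives a measured ratio.

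Foxc2 had signals of 553 and 337 in no.1, 264 and 63.4 in no.2, and 10.0 and 11.1 in control. Replicate 2 of no.2 stood well below the other 3 cKO arrays, though still above both controls. The difference from control was 3.94 ± 0.65 in no.1 (15.4-fold) and 2.89 ± 0.65 in no.2 (7.44-fold), and without that array the no.2 difference was 3.95. Meox1, the other developmental transcription factor, had signals of 255 and 276 in no.1, 199 and 206 in no.2, and 9.11 and 7.19 in control. Its arrays lay close together within each group and the cKO arrays did not overlap the controls. The unscaled signals were higher in no.1 than in no.2, and the scaled ones were lower. The difference was 3.62 ± 0.22 in no.1 (12.3-fold) and 3.92 ± 0.22 in no.2 (15.2-fold), the smallest SE of the 8 genes.

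Nrep had the largest SE of the 8 genes. Its signals were 338 and 1097 in no.1, 737 and 2148 in no.2, and 64.9 and 76.8 in control. Replicate 2 was the higher array in both cKO groups, and the lowest cKO array, replicate 1 of no.1, was 0.63 log2 units above the higher control array after scaling. The difference from control was 1.70 ± 0.71 in no.1 (3.24-fold) and 3.43 ± 0.71 in no.2 (10.8-fold). Left to replicate 1 alone, the no.1 difference was 0.76.

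**Figure D1:**
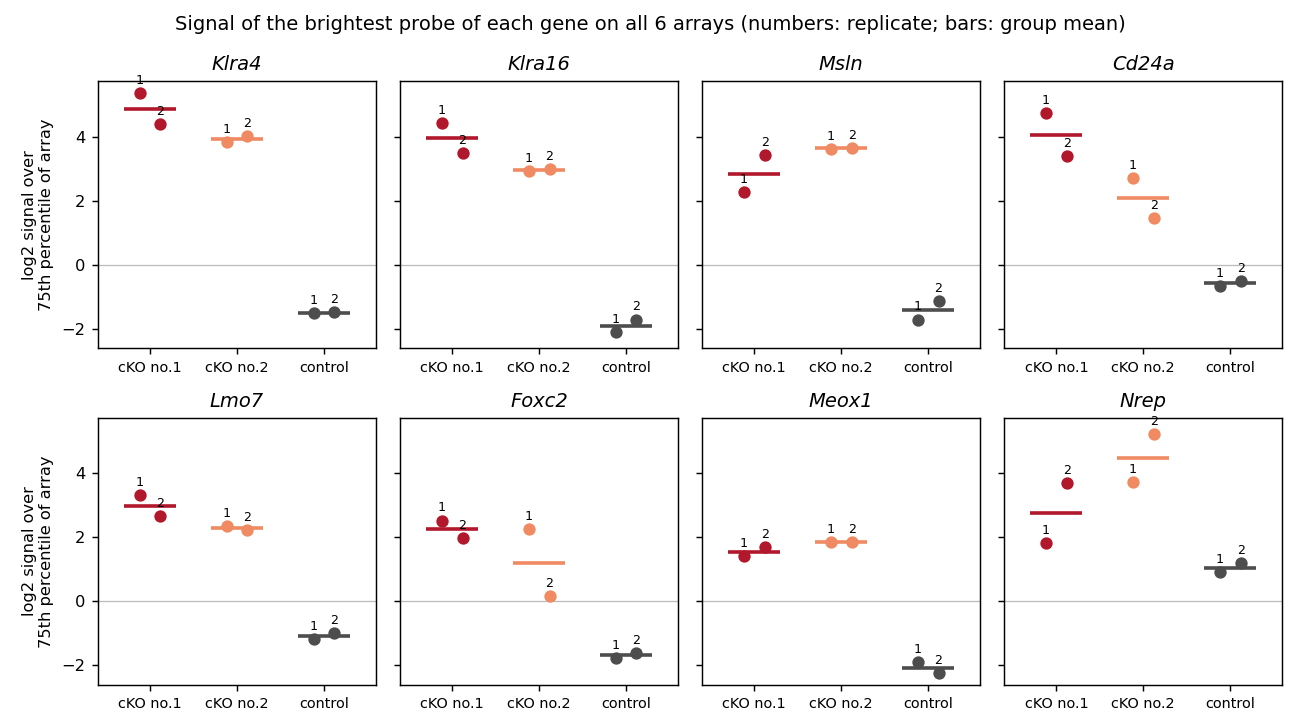
Scaled log2 signal (log2 of signal over the array's 75th percentile, vertical axis) of the brightest probe of each of the 8 genes on the LH2 cKO no.1, LH2 cKO no.2 and control arrays. Points are arrays, digits give the replicate number and bars the mean of 2 arrays; every cKO point lies above both control points of its panel, and the arrays of a group are farthest apart for Nrep, Foxc2 in no.2 and Cd24a.

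**Figure D2:**
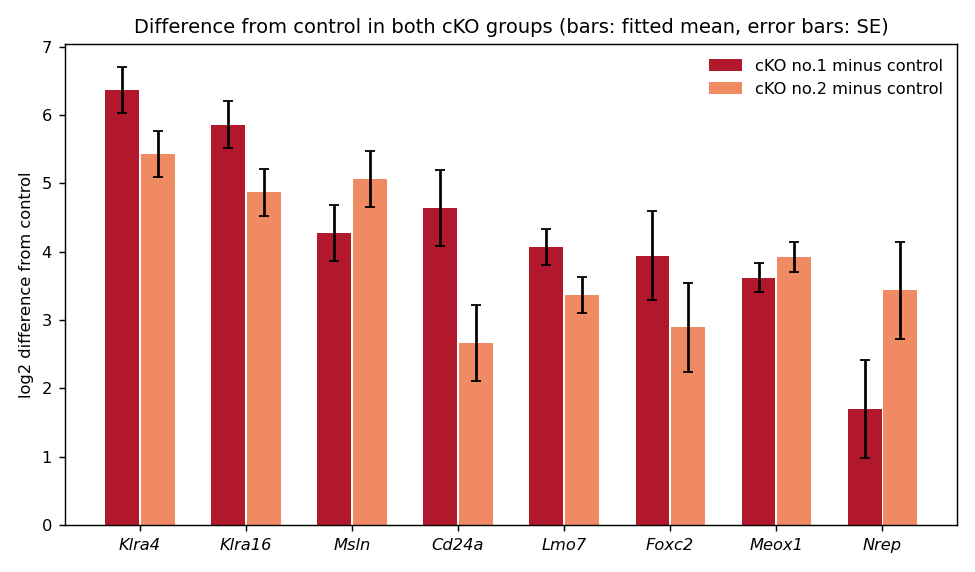
Fitted log2 difference from control (vertical axis) in LH2 cKO no.1 and in LH2 cKO no.2, with bars from 0 and the SE of the fit as error bars. Values run between 1.70 for Nrep in no.1 and 6.37 for Klra4 in no.1; the genes were chosen on these differences, so the bars describe them.

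The size of these differences depends on how background and brightness are handled. With normexp background correction, which fits the background and adds an offset, the no.1 difference was 4.73 for Klra4, 3.76 for Klra16, 2.49 for Msln, 3.63 for Cd24a, 2.79 for Lmo7, 1.98 for Foxc2, 1.69 for Meox1 and 1.60 for Nrep. The no.2 difference was then 3.55 for Klra4, 2.64 for Klra16, 2.99 for Msln, 1.61 for Cd24a, 1.98 for Lmo7, 1.11 for Foxc2, 1.82 for Meox1 and 2.99 for Nrep. Scaling to the spike-in probes instead made each no.1 difference 1.94 log2 units larger and each no.2 difference 1.29 larger. All 8 genes stayed above control under both, but a printed fold holds for the scaling used here.

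Over all 23058 genes, limma called 21.4% higher in no.1 than in control and 12.1% higher in no.2 than in control, at a Benjamini-Hochberg adjusted p under 0.05. All 4 cKO arrays lay above both control arrays for all 8 genes and for 28.2% of all genes tested. Because the 8 were chosen on this contrast, nothing is read from their count. As a description of their place, the 12059 genes that have a symbol and stood well above background on all 6 arrays were ordered by the smaller of their differences from control in no.1 and no.2. Klra4 stood at place 1, Klra16 at 2, Msln at 5, Meox1 at 6, Lmo7 at 10, Foxc2 at 20, Cd24a at 27 and Nrep at 183. The choice followed no numeric threshold, and genes that are not among the 8 stood between them: Ankrd1 at place 3 (5.17 in no.1 and 4.36 in no.2) and Idi1 at place 4 (4.78 and 4.30). Differences of at least 8-fold in both groups were held by 18 of the 17788 genes, named or not, that were well above background on all 6 arrays, and 5 of these were among the 8.

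The comparison of no.1 with no.2 was not used in the choice and could be tested. It asks whether tamoxifen that stayed in the medium went with another level of these genes than tamoxifen that was taken away. None of the 8 genes passed: limma called 0 of 23058 genes in either direction, while 1899 were higher and 1925 lower in no.1 at an unadjusted p under 0.05. Cd24a had the largest difference of the 8, 1.98 ± 0.56 log2 units higher in no.1 than in no.2 (95% interval 0.62 to 3.33), with both no.1 arrays above both no.2 arrays (limma adjusted p = 0.282). Nrep lay the other way, with a difference of -1.74 ± 0.71 (interval -3.48 to 0.0058, adjusted p = 0.301), and both no.1 arrays were below both no.2 arrays after scaling.

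The remaining genes differed less. Klra4 was 0.94 ± 0.34 higher in no.1 (interval 0.12 to 1.77), Klra16 0.99 ± 0.34 (0.15 to 1.83) and Lmo7 0.70 ± 0.27 (0.049 to 1.34), each in 4 of 4 pairs of arrays. Their limma adjusted p was 0.282 for both Ly49 genes and 0.288 for Lmo7. Foxc2 had a difference of 1.05 ± 0.65 (interval -0.54 to 2.63, adjusted p = 0.420), which rested on the low no.2 array: without no.2 replicate 2 it was -0.0018. Msln had a difference of -0.79 ± 0.41 (-1.79 to 0.20, adjusted p = 0.357) and Meox1 one of -0.30 ± 0.22 (-0.83 to 0.23, adjusted p = 0.483), both with no.1 below no.2 in 4 of 4 pairs after scaling. For Meox1 the sign turned to 0.34 with spike-in scaling. These intervals are not adjusted for the number of genes, and with 2 arrays a group they are wide. Differences as large as 3.33 for Cd24a and as small as 0.62 both lie within them, and a p that misses the threshold does not show that the groups are alike.

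**Figure D3:**
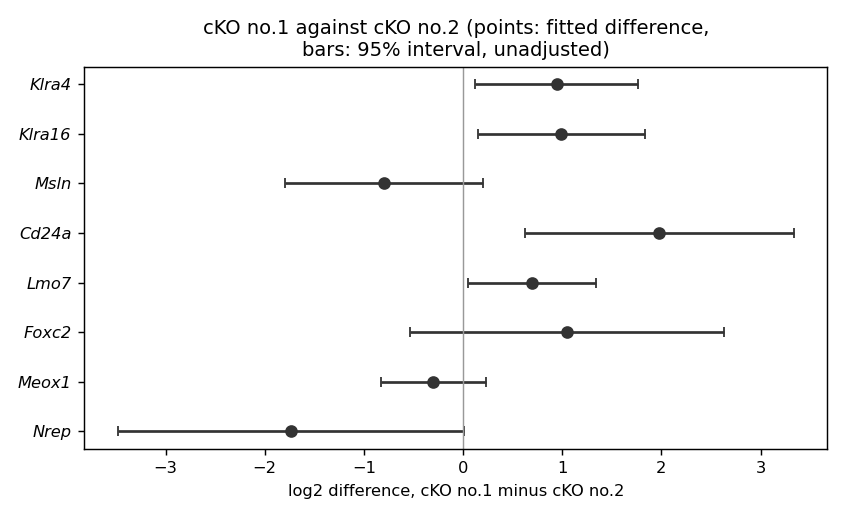
Fitted log2 difference between LH2 cKO no.1 and LH2 cKO no.2 (horizontal axis, positive where no.1 is higher) for the 8 genes, with unadjusted 95% intervals as bars. The intervals of Klra4, Klra16, Cd24a and Lmo7 lie above 0 and the other 4 reach across it; none of the 8 passed after adjustment over 23058 genes.

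The arrays of 1 group also differed from each other. Replicate 2 minus replicate 1 came to 1.87 log2 units for Nrep in no.1, 1.50 in no.2 and 0.26 in control. For Cd24a it was -1.35 in no.1, -1.23 in no.2 and 0.18 in control. These 2 genes thus shifted by similar amounts in both cKO groups, Nrep upward and Cd24a downward, along the numbers that the file names pair with 48 h and 24 h. Foxc2 had -0.54 in no.1, -2.10 in no.2 and 0.17 in control. The Ly49 genes differed most between the arrays of no.1. Klra4 had -0.98 in no.1, 0.20 in no.2 and 0.053 in control, and Klra16 had -0.94 in no.1, 0.062 in no.2 and 0.40 in control. Msln had 1.14 in no.1 and 0.03 in no.2, beside 0.58 in control, and Lmo7 had -0.64 in no.1, -0.14 in no.2 and 0.18 in control. Meox1 had 0.29 in no.1, 0.0093 in no.2 and -0.32 in control. Over all tested genes the robust SD of this difference was 0.42 in no.1, 0.49 in no.2 and 0.17 in control. Because the hours stand in the file names alone and the labels contradict them, the arrays were not grouped by hour and these shifts were not tested.

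**Figure D4:**
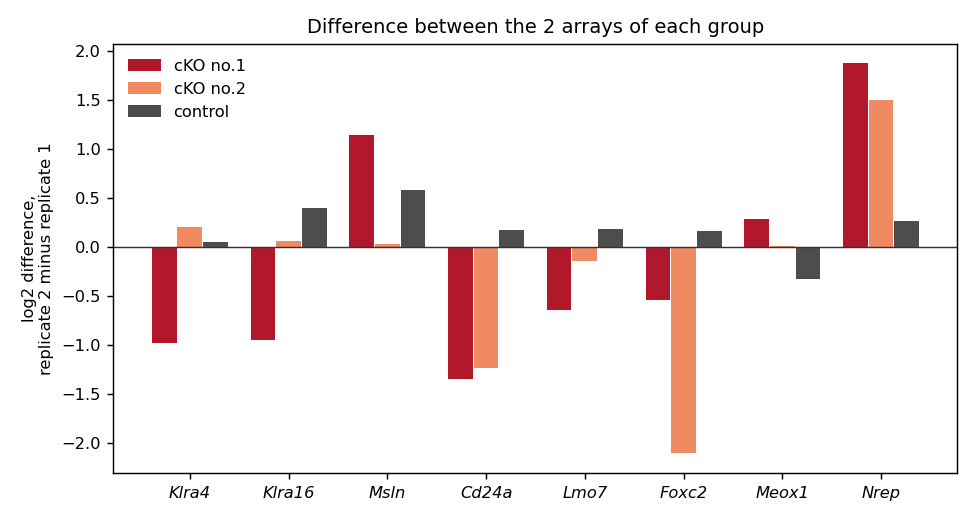
Scaled log2 signal of replicate 2 minus that of replicate 1 (vertical axis) for the 8 genes in LH2 cKO no.1, LH2 cKO no.2 and control, with bars from 0. Nrep lies above 0 and Cd24a and Foxc2 below 0 in both cKO groups; each bar is 1 pair of arrays and has no error of its own.

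The genes whose profile over the 6 arrays lay nearest to each of the 8 were sought among the 12803 genes with a symbol, other than the 8 themselves, that were well above background on all 4 cKO arrays, by the root mean square difference of centred log2 values. Nearest to Klra16 were Arhgap36 (0.22) and Ankrd1 (0.32), and nearest to Klra4, though farther than Klra16, were Arhgap36 (0.35) and the family member Klra7 (0.53). For Msln they were Slc1a3, a glutamate transporter (0.23), and Adgrg6, an adhesion receptor (0.45). For Cd24a they were the cell division genes Ccna2 (0.42), a cyclin, and Aspm (0.46), a protein of the mitotic spindle poles. Lmo7 had the closest neighbours of all, Slc38a4 (0.16), an amino acid transporter, and Rbmx (0.17), an RNA-binding protein. Foxc2 was nearest to the histone gene H3c1 (0.26) and to Zdhhc2 (0.39), and Nrep to Ypel1 (0.27) and Mme (0.33), a membrane peptidase. The near profiles of Meox1 included that of Mgp (0.33), an extracellular inhibitor of calcification. Within the 8, Klra4 and Nrep were the farthest apart, at 2.12.

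The Ly49 family was followed beyond its 2 members. Of 20 other family genes listed, 9 were on the array and 5 could be tested against control. Klra7 had signals of 706 and 329 in no.1, 139 and 158 in no.2, and 1.15 and 4.18 in control, where it was not well above background. It was at least 39.8-fold higher in no.1 and at least 19.8-fold higher in no.2 than in control. Klra8 had signals of 135 and 58.9 in no.1, 23.6 and 35.4 in no.2, and 3.27 and 1.43 in control, also not well above background there, and was at least 7.38-fold higher in no.1 and at least 3.86-fold higher in no.2. Both probes entered the fit through the cKO arrays alone and were named with their values known, so these bounds are a description. The no.2 call of Klra8 was lost with normexp background correction and without no.2 replicate 2. The cKO arrays of both genes stood in the same order as those of Klra4 and Klra16 as far as the groups go, with no.1 above no.2.

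The other tested Ly49 probes did not follow. Klra2 had signals of 17.1 and 27.0 in no.1, 10.9 and 16.2 in no.2, and 51.0 and 49.9 in control, and fell by 2.65 ± 0.34 log2 units in no.1 (limma adjusted p = 0.00364) and by the same amount under no.2 conditions (adjusted p = 0.00667); with spike-in scaling its no.1 call was lost. Klra1, with signals of 409 and 321 in no.1, 153 and 117 in no.2 and 115 and 119 in control, had a difference of 0.22 ± 0.22 in no.1 (limma adjusted p = 0.451) and one of -0.53 ± 0.22 in no.2 (0.122). Klra9 was well above background in no.1 alone and is not given a ratio. In counts, 21.4% of all genes were higher and 26.4% lower in no.1, and 12.1% higher and 16.2% lower in no.2. Of the 5 tested Ly49 genes, 2 were higher and 1 lower in no.1, and 2 were higher and 2 lower in no.2. The higher ones were Klra7 and Klra8. One of the lower calls in no.2 was that of Klra9, which was not well above background in no.2 or in control and lost this call under 11 of 15 alternatives, with an adjusted p of up to 0.810. When only genes well above background on all 6 arrays were kept, 0 of the family were called higher, since Klra7 and Klra8 are too dim in control to enter.

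Other genes of NK cells were looked at because the Ly49 receptors are known from them. Of 23 NK and T cell markers listed, 22 were on the array, and Ncr1, Nkg7 and Klrb1c, which define NK cells, were not well above background on any of the 6 arrays. Of the 6 tested markers limma called 0 higher and 4 lower in no.1, beside 21.4% higher and 26.4% lower over all genes. In no.2 it called 0 higher and 3 lower, beside 12.1% higher and 16.2% lower over all genes. At an unadjusted p under 0.05 the count on the higher side was also 0 in both groups. With spike-in scaling, 2 were higher and 1 lower in no.1, and 1 was higher and 1 lower in no.2. Of all 23058 genes, spike-in scaling had 18966 higher and 422 lower in no.1, and 15112 higher and 529 lower in no.2. Among the markers called lower in the scaling used here, Hcst, a signalling adaptor, was well above background on the control arrays alone and entered the fit through them. As a description, it was at least 9.78-fold lower in no.1 and at least 6.21-fold lower in no.2. Cd247, a chain of the T cell receptor complex, had -2.20 ± 0.35 in no.1 (limma adjusted p = 0.00604) and -1.67 ± 0.35 in no.2 (0.0218). The calls of Cd247 were lost with spike-in scaling, as was its no.2 call with the control arrays averaged and without either control array. The no.2 call of Hcst was lost without no.2 replicate 2. The summed scaled signal of the list was 9.50 to 9.75 in no.1, 9.86 to 18.9 in no.2 and 38.7 to 43.5 in control, most of it from Cd247. Without Cd247 it was 1.49 to 1.75 in no.1, 1.79 to 2.26 in no.2 and 4.11 to 4.17 in control. The leukocyte and B cell list had 0 higher and 3 lower of 7 tested in each cKO group by limma (0 higher at an unadjusted p under 0.05), beside the same shares of all genes. With spike-in scaling this list had 3 higher and 1 lower in no.1, and 2 higher and 1 lower in no.2, beside the spike-in counts over all genes given above. The pan-leukocyte gene Ptprc was not well above background on any array.

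**Figure D5:**
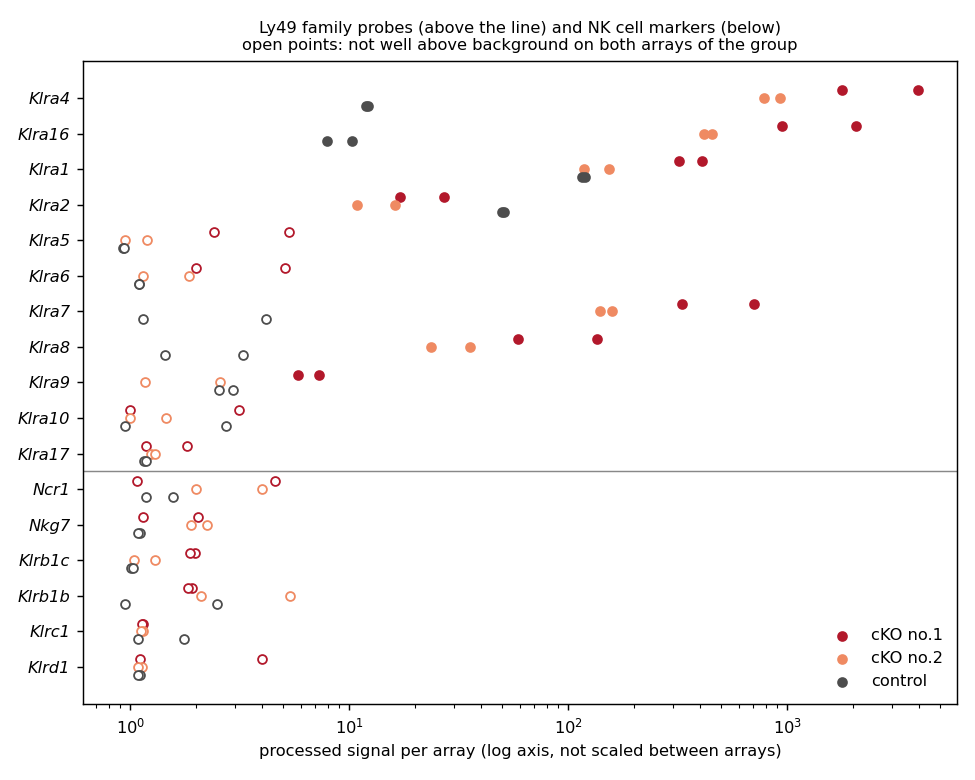
Processed signal per array (horizontal log axis, not scaled between arrays) of the Ly49 family probes above the line and of NK cell markers below it, for LH2 cKO no.1, LH2 cKO no.2 and control. Open points mark groups in which the probe was not well above background on both arrays; Klra4, Klra16, Klra7 and Klra8 have filled cKO points to the right of the control points, and the 6 NK cell markers are open throughout.

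Msln was set beside other mesothelial markers. Of 21 listed, 20 were on the array and 9 were tested, and Wt1, Upk3b and Upk1b, the genes that define mesothelium, were not well above background on any array. In no.1, 1 was higher (11.1%) and 3 were lower (33.3%), and in no.2, 1 was higher (11.1%) and 4 were lower (44.4%). Over all genes, 21.4% were higher and 26.4% lower in no.1, and 12.1% higher and 16.2% lower in no.2. Igfbp6, a binding protein of insulin-like growth factors, had -4.69 ± 0.39 in no.1 (limma adjusted p = 0.00158) and -3.67 ± 0.39 in no.2 (0.00439). Krt18, a keratin, was well above background on 1 of the control arrays and entered the fit through the cKO arrays. As a description, it was the higher one at 1.01 ± 0.33 in no.1 and 1.38 ± 0.33 in no.2. Its no.1 difference turned to -0.22 with normexp background correction, and both calls of Krt18 were lost with the control arrays averaged. The summed scaled signal of the list was 79.6 to 132 in no.1, 146 to 181 in no.2 and 539 to 576 in control. Without its brightest genes, Igfbp6 and the surface protein Pdpn, it was 25.1 to 30.6 in no.1, 36.1 to 42.1 in no.2 and 35.1 to 36.5 in control. The keratinocyte and epithelial list, whose cells express Cd24a as well, had 1 higher and 2 lower of 9 tested in each cKO group.

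Of 31 other GPI-anchored surface proteins listed, 28 were tested. In no.1, 3 (10.7%) were higher and 14 (50.0%) lower, beside 21.4% and 26.4% of all genes. In no.2, 3 (10.7%) were higher and 10 (35.7%) lower, beside 12.1% and 16.2% of all genes. With spike-in scaling 12 were higher and 2 lower in no.1, beside 18966 and 422 of the 23058 genes. Under the same scaling 8 were higher and 2 lower in no.2, beside 15112 and 529 of all genes. In the scaling used here, the list's median difference was -1.14 in no.1 and -0.79 in no.2, beside -0.12 and -0.10 over all tested genes. Sema7a, a membrane-bound semaphorin, had signals of 10.1 and 12.8 in no.1, 13.7 and 5.46 in no.2, where 1 of the arrays was well above background, and 56.2 and 63.1 in control, a difference of -3.80 ± 0.46 in no.1 (limma adjusted p = 0.00337) and -3.51 ± 0.46 in no.2 (0.00725). Thy1, a surface protein used to mark fibroblasts, had -2.22 ± 0.19 in no.1 (limma adjusted p = 0.0016) and -1.91 ± 0.19 in no.2 (0.00359). With spike-in scaling its no.2 call was lost and its no.1 difference was -0.28.

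Transcription factors related to Foxc2 and Meox1 were divided. Of 31 listed genes of the forkhead and homeobox families and of the somites, 21 were tested, with 6 higher and 9 lower in no.1 and 6 higher and 8 lower in no.2. That is 28.6% higher and 42.9% lower in no.1, beside 21.4% and 26.4% of all genes. In no.2 it is 28.6% higher and 38.1% lower, beside 12.1% and 16.2% of all genes. Their median difference was -0.67 in no.1 and -0.54 in no.2. Foxc1, the paralog of Foxc2, was named after its values were seen. It had signals of 104 and 80.2 in no.1, 47.2 and 76.4 in no.2, and 13.1 and 9.12 in control, and rose by 1.65 ± 0.30 log2 units in no.1 (limma adjusted p = 0.00842) and by 1.73 ± 0.30 in no.2 (0.0138). Meox2, the paralog of Meox1, was on the other side, with signals of 1.01 and 5.11 in no.1, 1.68 and 8.32 in no.2, and 11.8 and 8.30 in control. It fell by 3.54 ± 1.00 in no.1, where it was called, and had a difference of -2.13 ± 1.00 in no.2, where it was not. Meox2 was well above background on 1 array of each cKO group. It entered the fit through the control arrays alone, so these values are a description. Its no.1 call was lost with averaged control arrays, with spike-in scaling, and without no.1 replicate 1, where the difference was -2.28. Zic1, a zinc finger factor of dorsal tissues, had signals of 11.1 and 7.66 in no.1, 1.90 and 8.51 in no.2, and 127 and 135 in control, and fell by 5.24 ± 0.64 in no.1 (0.00344). In no.2, where it was well above background on 1 of 2 arrays, it was also called lower (0.00480). Scx, a factor of tendon cells, rose by 2.57 ± 0.47 in no.2 (0.0157). With averaged control arrays the no.2 calls of Scx and Foxc1 were lost.

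Among LIM and PDZ-LIM proteins, the wider family of Lmo7, 31 of 35 were tested. In no.1, 6 were higher and 9 lower, and in no.2, 4 were higher and 6 lower, with medians of 0.11 and -0.11. These are 19.4% higher and 29.0% lower in no.1 and 12.9% higher and 19.4% lower in no.2, near the shares over all genes (21.4% and 26.4% in no.1, 12.1% and 16.2% in no.2). Pdlim4, an actin-binding PDZ-LIM protein, had signals of 43.3 and 139 in no.1, 159 and 158 in no.2, and 1959 and 2038 in control. It fell by 6.10 ± 0.56 in no.1 (limma adjusted p = 0.00189) and by 4.38 ± 0.56 in no.2 (0.00684), opposite to Lmo7. Fhl1, a protein of LIM domains alone, rose by 2.11 ± 0.43 in no.1 (0.0118).

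Nrep is known to act on the translation of TGF-beta proteins, so ligands, latent binding proteins and receptors of that pathway were counted. All 21 listed genes were tested, with 4 higher (19.0%) and 8 lower (38.1%) in no.1 and 4 higher (19.0%) and 6 lower (28.6%) in no.2. Over all genes the shares were 21.4% higher and 26.4% lower in no.1, and 12.1% higher and 16.2% lower in no.2. The ligand Tgfb2 had signals of 159 and 100 in no.1, 48.0 and 61.0 in no.2, and 8.11 and 5.46 in control. It rose by 2.83 ± 0.29 in no.1 (limma adjusted p = 0.00237) and by 2.30 ± 0.29 in no.2 (0.00651). The receptor Acvrl1 and the co-receptor Eng lay below control. Acvrl1 fell by 3.39 ± 0.19 in no.1 (0.000572) and by 2.94 ± 0.19 in no.2 (0.00114), and Eng fell by 3.30 ± 0.19 in no.1 (0.000583). Lrrc32, which holds latent TGF-beta at the cell surface, fell by 2.49 ± 0.40 in no.1 (0.0061) and by 2.51 ± 0.40 in no.2 (0.0113), calls that were lost with spike-in scaling in no.1 and with averaged control arrays in no.2. Of the 12 tested markers of myofibroblasts and smooth muscle, cells in which Nrep is also known, 1 was higher and 2 were lower in no.1, and limma called 0 in no.2, where 0 were higher and 2 lower at an unadjusted p under 0.05.

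The remaining cell type lists gave mixed counts. Over all genes, 21.4% were higher and 26.4% lower in no.1, and 12.1% higher and 16.2% lower in no.2. Fibroblast markers had 2 higher and 7 lower of 13 tested in no.1, and 2 higher and 5 lower in no.2. The matrix gene Dpt entered the fit through the control arrays alone and is given as a description. It was not well above background in no.1 and was at least 9.04-fold lower there. In no.2, with 1 of 2 arrays well above background, Dpt was also called lower. Dcn, another matrix gene, had -3.73 ± 0.44 in no.1 (limma adjusted p = 0.0032) and -2.29 ± 0.44 in no.2 (0.0172). Schwann, neuronal and glial markers, of note for Nrep, had 2 higher and 4 lower of 7 in no.1 and 2 higher and 3 lower in no.2, and Map2, a microtubule protein not well above background in control, was at least 12.4-fold higher in no.1 and at least 8.79-fold higher in no.2. Of 3 endothelial markers tested, Flt1 was the 1 called higher in both groups. It was well above background on 1 of the control arrays and entered the fit through the cKO groups, and its no.2 call was lost with normexp, without control replicate 2 and without no.2 replicate 1. The no.2 calls of Dpt and Dcn were lost with averaged control arrays. The part of any of these shifts in the values of the 8 genes was not tested. With the 2 control arrays taken as 1 sample, many of these counts were smaller, and so were the counts over all genes. With spike-in scaling the balance turned in several lists and over all genes, so each of these counts is relative to the 75th percentile of its array.

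The genome around the 8 genes was read from the order of genes in the RefSeq table. They lie on chromosomes 6 (Klra4 and Klra16), 17 (Msln), 10 (Cd24a), 14 (Lmo7), 8 (Foxc2), 11 (Meox1) and 18 (Nrep). For 7 of them, all but Klra16, the nearest named genes with a tested probe were taken, 2 on each side. Of these 28 neighbours 8 were higher and 8 lower in no.1, beside 21.4% and 26.4% of all genes. In no.2, 3 were higher and 7 lower, beside 12.1% and 16.2% of all genes. The higher ones included the Ly49 gene Klra8 in both groups and the Foxc2 neighbour Foxl1 in no.1. Both of these entered the fit through the cKO arrays alone, so the counts are a description. Next to Foxc2 lies another forkhead gene, Foxl1, which was well above background on all cKO arrays and on no control array. On one side of Nrep lies Stard4, which encodes a carrier of cholesterol inside the cell and was higher by 2.70 ± 0.18 in no.1 (limma adjusted p = 0.000885) and by 2.58 ± 0.18 in no.2 (0.00155). The neighbours of Msln were not alike: Haghl, on one side, fell by 2.74 ± 0.40 in no.1 (0.00485) and by 1.55 ± 0.40 in no.2 (0.0358), calls that were lost with spike-in scaling, and Chtf18, on the other, was higher by 1.21 ± 0.38 in no.1 (0.0413).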

How the data were processed

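Per the labels' protocols, amplified total RNA was Cy3-labelled. The deposited scanner files hold intensity values, per the file headers from Feature Extraction 12.1.1.1 (the submitters' processing notes name Agilent Feature Extraction 9.5.1.1), background-subtracted within the array and not normalized between arrays. The authors' deposited value table also holds intensity values, and at least 99.97% of them on each array came within 1% of quantile-normalized processed signals (linear scale, column median 5.16), which settles its scale, centring and direction. Columns without a sample numbered 0. All 6 arrays were on 1 slide and in 1 scan, with control in slide row 1 and both cKO groups in row 2, so for either contrast with control, row cannot be told apart from group. Likewise no.1 lay in columns 1 and 2 and no.2 in columns 3 and 4. No probe was saturated (0 spots).

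Processed signals were put on the log2 scale and the 75th percentile of the same array was subtracted. Accessions without versions were looked up in RefSeq genes (GRCm38.p6), for names and gene order only, as the headers name build mm9; 32994 probes (58.3%) got a symbol and 23611 kept the name in the file. A gene was its brightest probe, and entered the fit if it was well above background on each of the 2 arrays in 1 group or more (14079 named and 8979 unnamed genes). Of these, 6845 had more than 1 probe. Group means were fitted to all 6 arrays (3 residual degrees of freedom) by lmFit and eBayes of limma 3.58.1 in R 4.3.3, reading files with data.table (version 1.17.8) and using Benjamini-Hochberg adjustment over all tested genes and calls under 0.05. The fit was tested on simulated data. A probe not well above background in control is given as a lower bound against control, taking on each control array its own signal or the dimmest one that counted as well above background, whichever was higher. Precision is limited by 2 arrays a group.

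The 8 genes, the 13 other gene lists (271 entries) and the tests were chosen with earlier results of these data known. Named are the 8 genes, Plod2, up to 4 called genes of largest difference in each list and contrast, the first 3 genes of marker lists, the 2 nearest profiles of each of the 8 (1 of those of Meox1 is not reported here), and gene neighbours; other Ly49 probes, Foxc1, Idi1 and the fibroblast gene Vim were named after their values were seen. Alternatives were normexp background correction with an offset of 50, quantile, median and spike-in scaling, the authors' value table, other filters and probe summaries, the control arrays averaged, a replicate block, and each array left out. The files hold no mean foreground signal, so normexp used the median one.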

Additional observations from a re-analysis of the deposited data

How the results depend on the processing

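For no.1 against no.2, none of the 8 genes was called under any of 18 alternatives, and the lowest adjusted p over these was 0.052 (Lmo7 and Cd24a). Leaving out 1 array at a time moved the difference of Klra4 between 0.46 and 1.43, Klra16 between 0.52 and 1.46, Msln between -1.36 and -0.22, Cd24a between 1.30 and 2.65, Lmo7 between 0.38 and 1.02, Foxc2 between -0.0018 and 2.10, Meox1 between -0.44 and -0.16, and Nrep between -2.67 and -0.80. Meox1 turned to 0.34 with spike-in scaling. The labels do not say that arrays of one number belong together (correlation of deviations 0.165 between the cKO groups, -0.035 for no.1 and -0.017 for no.2 with control); the replicate block gave 0 calls for no.1 against no.2, and 4758 higher and 5814 lower for no.1 against control. Against control all 8 genes kept their direction under 17 alternatives, but not their size: no.1 ranged between 1.69 and 5.56 for Meox1 and between 1.98 and 5.88 for Foxc2, and no.2 between 1.11 and 4.19 for Foxc2, each with normexp lowest and spike-in scaling highest.

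Counts over all genes moved more. Without a filter on dim probes, no.1 against no.2 gave 520 higher and 7776 lower, and leaving out arrays gave 0 to 2 higher and 0 to 115 lower, the highest of both without no.1 replicate 2. For no.1 against control, higher counts were 7564 with the median probe, 18966 with spike-ins and 2260 with averaged controls, and 2270 to 5270 with an array left out; lower counts were 10338 with normexp, 3295, 422 and 2585 in the order median, spike-ins and averaged controls, 19758 without a filter, and 2728 to 6783 with an array left out. For no.2 against control, the higher counts were 4839, 15112 and 577 in that order and 598 to 2642 with an array left out; the lower ones were 2175, 529 and 669, 13446 without a filter, and 700 to 4126 with an array left out. The lowest of each came without control replicate 2.

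Single genes turned sign. With spike-in scaling, no.1 minus control became 0.41 for Cd3e, 0.63 for Tbx21, 0.078 for Pax5, 0.92 for Nkain4, 0.82 for Cldn7 and 0.68 for Myh11, and no.2 minus control 0.20 for Cd3e and 0.51 for Cldn7. With normexp, no.1 minus control became -0.22 for Krt18, -0.19 for Mkx and -0.061 for Ldb3, and no.2 minus control -0.063 for Ldb3 and -0.19 for Ldb2. Without either control array, the calls of Meox2 and Krt18 in no.1 and of Cd247, Krt18, Scx, Dpt and Dcn in no.2 were also lost. The causes were not tested. Signal over background limits the dim probes of control, and 2 arrays a group limit all intervals.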
